A study of Rattus norvegicus with 180 samples.

Results

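The let-7 family was described here across 55 organs of the male rat. The members were chosen by name as the let-7 microRNAs and miR-98 on the array, and 8 of the 717 miRNAs measured met that rule: rno-let-7a, rno-let-7b, rno-let-7c, rno-let-7d, rno-let-7e, rno-let-7f, rno-let-7i and rno-miR-98 (written below without the prefix for rat). RNA came from normal, untreated male Sprague-Dawley rats aged 10 weeks and was hybridised to one-color Agilent miRNA arrays. Rats 4, 5 and 6 were perfused with saline to remove blood and gave all 55 organs (3 arrays per organ). Rats 1, 2 and 3 were not perfused and gave liver, kidney, lung, cardiac atrium and interventricular septum only (15 arrays). The 6 intestinal samples, from duodenum to rectum, were scraped mucosal epithelium. Every sample held a mixture of cells, so more cells of a type and more miRNA per cell cannot be told apart in any value below.

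A miRNA is a short RNA that guides the silencing complex to messenger RNAs, mainly through the seed, the stretch of bases near its 5′ end that pairs with the target. let-7 was first found in the nematode as a regulator of developmental timing. In mammals the family accumulates as cells differentiate, is held back in early embryonic cells by the RNA-binding protein Lin28, and represses growth-promoting genes such as those of the Ras family, Myc and Hmga2.

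The mature sequences, from RefSeq (assembly GRCr8), are shown because the members share 1 seed and differ only outside it. Capitals mark the seed, bases 2 to 8 counted from the 5′ end.
rno-let-7a: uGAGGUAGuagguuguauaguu
rno-let-7b: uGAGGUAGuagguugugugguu
rno-let-7c: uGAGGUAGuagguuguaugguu
rno-let-7d: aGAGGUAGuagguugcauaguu
rno-let-7e: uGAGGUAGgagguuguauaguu
rno-let-7f: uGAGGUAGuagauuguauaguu
rno-let-7i: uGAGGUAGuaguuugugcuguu
rno-miR-98: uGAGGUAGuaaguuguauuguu

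All 8 carried the same seed, and no other miRNA among the 394 array names matched to RefSeq did. Counted from the 5′ end and with let-7a as the reference, let-7c differed by A19G, let-7e by U9G and let-7f by G12A. let-7b differed by A17G and A19G, let-7d by U1A and U16C, and miR-98 by G11A and A19U. let-7i was the most distant, with G12U, A17G, U18C and A19U. RefSeq lists let-7g with the same seed, and it was not analysed here.

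The genes lie in several groups of GRCr8 that hold other members or other miRNAs. Mirlet7e (chr1:67350243-67350264, + strand) lies 110 bases from Mir99b and near Mir125a. Mirlet7b (chr7:118684044-118684065) and Mirlet7c2 (chr7:118683636-118683657) are neighbours, and the other let-7c gene, Mirlet7c1 (chr11:29688127-29688148), lies 655 bases from Mir99a. Mirlet7a1 (chr17:16320145-16320166), Mirlet7f-1os (chr17:16320508-16320529) and Mirlet7d (chr17:16322273-16322294) form 1 cluster. Mirlet7f2 (chrX:24460052-24460073) adjoins Mir98 (chrX:24460663-24460684), and Mirlet7a-2 (chr8:50805219-50805240) lies 6845 bases from Mir100. Mirlet7i (chr7:60527935-60527956, minus strand) has no listed miRNA on its own strand within 10 kb. Only neighbours on the same strand were searched. An array probe reads the mature strand, so the let-7a, let-7c and let-7f values each sum over 2 genes.

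A level below is a scaled signal: the mean brightness of a miRNA's spots, divided by the array's 75th percentile over the 37 miRNAs detected on every array. It has no absolute unit, and levels were never set against each other between members. The arrays detected 86 to 244 miRNAs, with a median of 161.5, and organ marker miRNAs such as miR-122 in liver and miR-142-3p in thymus were at their highest in the organs the labels name. The pancreas arrays were the dimmest, with 75th percentiles of 68.0 to 120.7 before scaling and 86 to 108 miRNAs detected. On 40 arrays of the perfused rats the 75th percentile fell exactly on a let-7 member, whose level there is then the scaling constant, 2118, and holds no measurement of its own. This concerned let-7d on 16 arrays, let-7b on 13 (all 3 of thymus and of spleen), let-7i on 9, and let-7c and let-7f on 1 each. 7 arrays correlated below 0.95 with the other arrays of their organ: cervical lymph node, cecum, optic nerve and lumbar cord of rat 4, parotid gland of rats 4 and 6, and abdominal aorta of rat 6. 8 arrays called rat 5 here (medulla oblongata, pituitary gland, the 3 segments of spinal cord, and the femoris, gastrocnemial and soleus muscles) carry a second rat number in their labels. Leaving them out gave 2.15 for let-7e and 1.18 for miR-98 in the pituitary gland and 0.93 for miR-98 in the cervical cord (1.05 with them), and lost no call of a value named below.

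Every member was present nearly everywhere. 6 members were well above background on every array of the perfused rats, and let-7e and miR-98 on all but the 3 pancreas arrays. All 8 differed over the 55 organs by the limma moderated F test (adjusted p from 1.75e-23 for let-7f to 1.99e-60 for let-7e), as did 99.7% of the 345 miRNAs tested. For 7 members the highest organ mean was between 3.52-fold and 6.59-fold above the lowest. let-7e spanned 39.5-fold. The SD of its 55 organ means was 1.18 on the log2 scale, against a pooled SD between rats of 0.28, whereas the other members had SDs of organ means from 0.37 to 0.57 and pooled SDs from 0.18 to 0.22. Neighbours in each member's order of organs lay closer than the pooled SD between rats in 51 to 54 of 54 steps. With 55 organs in 1 order, small steps are bound to be common, and let-7e with its wide span had 52. The count therefore says only that single ranks should not be read closely. The wider gaps at the ends of the order are given below.

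**Figure D1:**
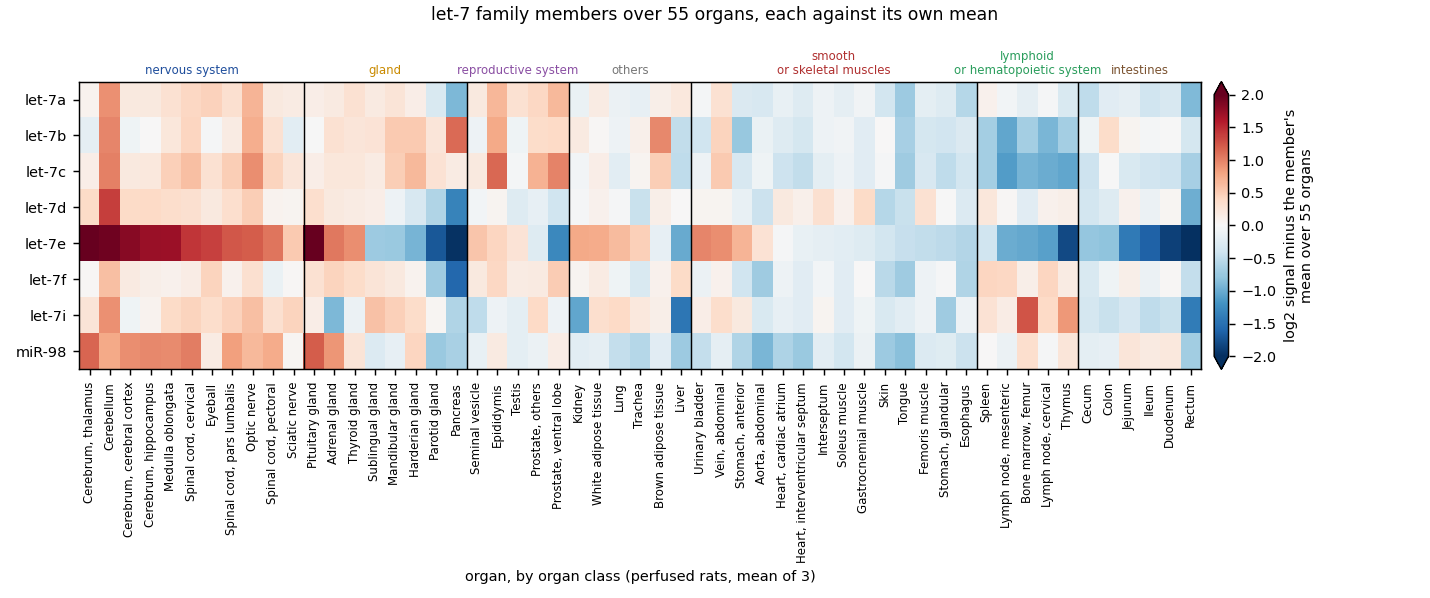
Difference of each organ's mean log2 signal from the member's mean over the 55 organs (color, log2 units; mean of 3 perfused rats) for the 8 members, organs grouped by class. let-7e carries the widest range, high in the nervous system and low in the intestines, and the cerebellum lies above the mean of the 55 organs for all members.

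Each organ was set against the mean of the other 54 by limma, with p-values adjusted over all 345 miRNAs and all 55 organs. 256 of the 440 organ and member combinations passed an adjusted p of 0.05. Over all miRNAs 23.4% of combinations were called higher and 50.7% lower. let-7e was called in the most organs, 23 higher and 23 lower. let-7f was called in the fewest, 12 higher and 10 lower. Higher and lower calls were 13 and 15 for let-7a, 17 and 15 for let-7b, and 17 and 19 for let-7c. They were 13 and 14 for let-7d, 20 and 14 for let-7i, and 14 and 17 for miR-98. Of the 256 calls, 162 kept their direction under each of 5 other scalings of the arrays and 102 also kept the call, so the values named below are given with any scaling that turned them.

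The cerebellum was the organ where the family was high as a whole. All 8 members were called higher there, where 29.3% of all miRNAs were, and all 8 kept that direction under the 5 other scalings. let-7f did not pass under quantile normalization, where its difference was 0.19. The cerebellum ranked first for let-7a, let-7d and let-7f, at rank 2 for let-7b, let-7c and let-7i, at rank 3 for let-7e and at rank 9 for miR-98. let-7d had the widest lead: its levels in the cerebellum of rats 4, 5 and 6 were 4468, 4301 and 4071, all above its highest level in any other organ. That put let-7d 2.66-fold above the mean of the other organs (log2 difference 1.41, SE 0.11, adjusted p = 2.28e-23), with the second organ 0.90 lower on the log2 scale.

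The rectum was the opposite, with all 8 members called lower, against 57.7% of all miRNAs. For let-7b the difference of -0.35 rested on rats 5 and 6, at 2346 and 2118 (the scaling constant), against 3782 in rat 4. The direction held under the 5 other scalings for let-7a, let-7d, let-7e, let-7i and miR-98. It turned for let-7b (to 0.33 at most), let-7c and let-7f (to 0.19 at most) under at least 1 of them.

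let-7e was the member with the strongest organ pattern. Its highest levels were in the thalamus, at 1952, 2855 and 2437 in rats 4, 5 and 6, and in the pituitary gland, at 2292, 2237 and 2400. The cerebellum followed with 1960, 2336 and 2015. These 3 organs overlapped one another, and were 4.50-fold, 4.35-fold and 3.94-fold above the mean of the other organs (log2 differences 2.17, 2.12 and 1.98, each with SE 0.16; the smallest under any scaling was 0.78, in the thalamus). The 11 highest organs for let-7e were 10 of the 11 of the nervous system together with the pituitary gland. The remaining one, the sciatic nerve, a peripheral nerve, lay lower with 740, 824 and 794.

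Within the central nervous system let-7e was not even. The 3 segments of spinal cord lay below the 5 brain regions in the order of means. One array in each of 2 segments was low: 951 in the lumbar cord of rat 4 against 1600 and 1415, and 767 in the thoracic (pectoral) cord of rat 6 against 1430 and 1359. The lumbar array of rat 4 carried the erythroid miR-451 at 838 against 142 and 52.9, and the thoracic array of rat 6 carried miR-1224 at 3859 against 131 and 134. On that lumbar array 5 nervous system miRNAs summed to 5858 against 12521 and 8861, with miR-219-5p at 144 against 1450 and 877. On that thoracic array the 5 summed to 9267 against 9706 and 11320. The part of these differences in the let-7e values was not tested.

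The rectum had the lowest signals for let-7e, with levels of 65.4, 52.2 and 64.3 in rats 4, 5 and 6. It lay 9.41-fold under the average of the other organs (log2 difference -3.23, SE 0.16, adjusted p = 1.39e-37). The pancreas had the second lowest signals (133, 134 and 147), but let-7e was not well above background on any array there, so these bound its level from above and its order against the rectum is not known. In the pancreas let-7e was at least 2.78-fold below the mean of all other organs. The measured difference of -2.02 became 0.47 in the normexp alternative, which changed the spot signal, the background correction and the offset at once. The duodenum was the next lowest organ in which let-7e was well above background. It varied most among the intestines, with 76.2 in rat 4 against 214 and 206, and a log2 difference of -1.90.

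**Figure D2:**
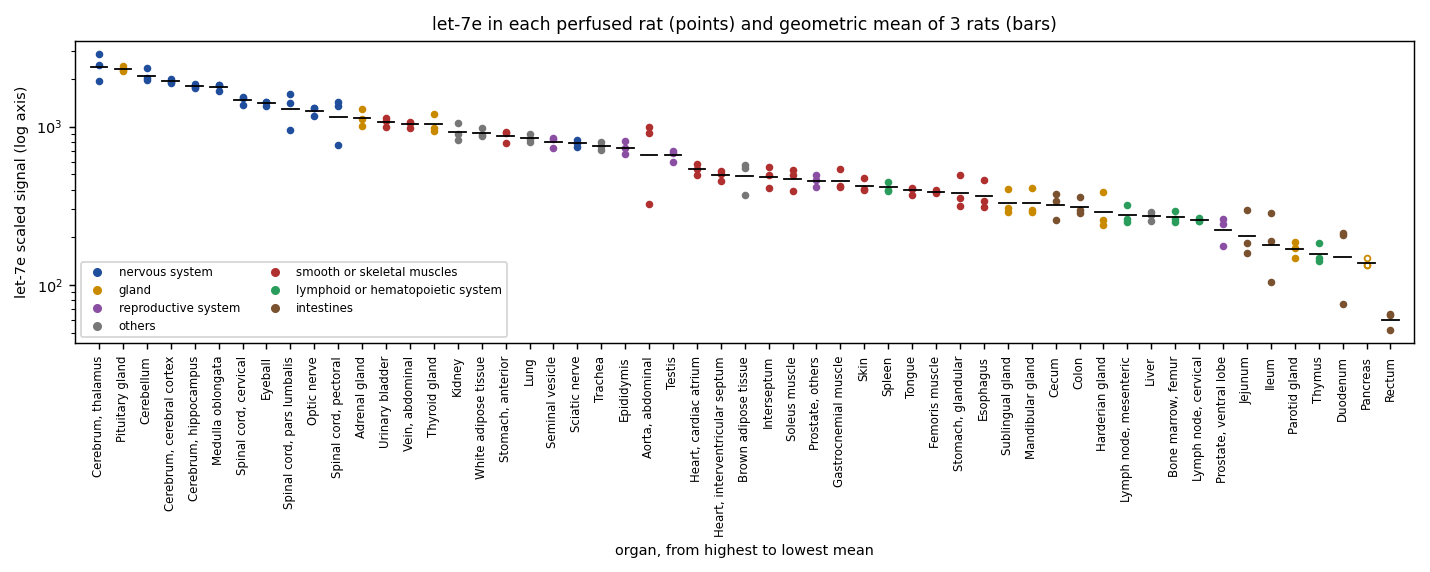
let-7e scaled signal (log axis) in the 55 organs, ordered by mean; each point is 1 of the 3 perfused rats and color gives the organ class, with open circles for arrays where let-7e was not well above background (pancreas). Nervous system organs and the pituitary gland fill the top 11 places, and the rectum, at 52.2 to 65.4, has the lowest signals.

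The miRNAs beside let-7e in the genome had the patterns most like it. Among 136 miRNAs outside the family, each present on 50% or more of the perfused arrays, the highest correlations with let-7e over the 55 organ means were those of miR-125a-5p (r = 0.97), miR-99b (0.91) and miR-218 (0.79), the first 2 being its cluster neighbours. All points share the same arrays and scaling. The correlations were 0.98, 0.94 and 0.70 when arrays were scaled over all miRNAs. miR-125a-5p was also lowest in the rectum (20.6, 23.7 and 32.0 in rats 4, 5 and 6), and miR-99b was at the floor of the scale, 10.8, on all 3 rectum arrays. This was not particular to the neighbours of let-7e: miR-99a and miR-100 were at the floor there too, and miR-125b-5p, at 37.2, 34.9 and 44.9, was also at its lowest. miR-99a and miR-100, which lie beside other let-7 genes, correlated with let-7e at 0.59 and 0.74, and miR-125b-5p, which shares its seed with miR-125a-5p, at 0.79. In the pancreas, where let-7e, miR-125a-5p and miR-99b were not well above background on any array, miR-99a ranked 5 of 55, at 1642, 2105 and 1994. miR-100, above background on 1 pancreas array, ranked 37 there and miR-125b-5p 38, both below their means over the organs.

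**Figure D3:**
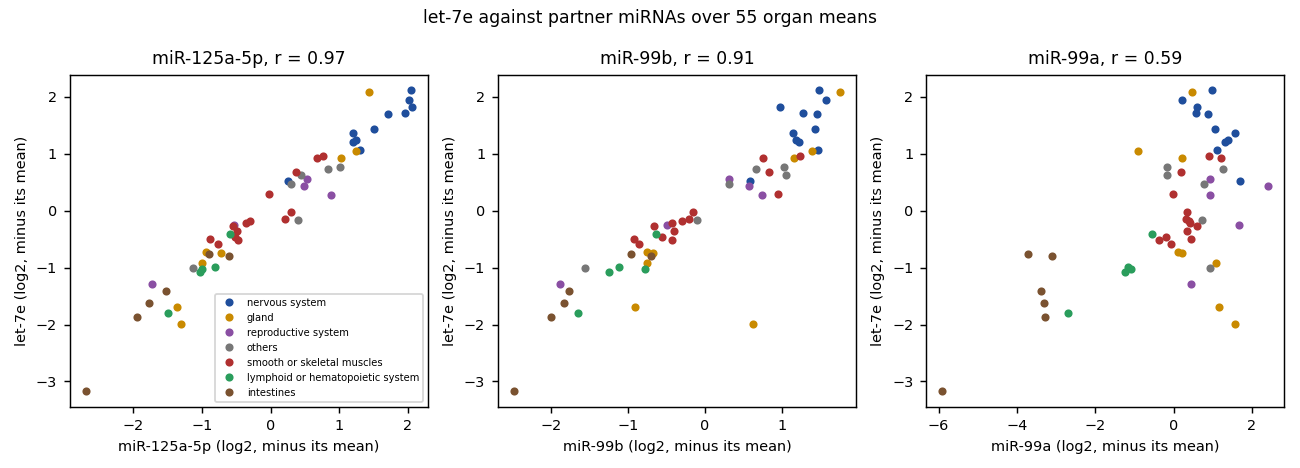
let-7e (vertical axis) against miR-125a-5p, miR-99b and miR-99a (horizontal axes), each as the organ mean of log2 signal minus that miRNA's mean over the 55 organs; each point is 1 organ. The points lie close to a line for miR-125a-5p (r = 0.97) and spread widely for miR-99a (r = 0.59), with the rectum at the lower left in all panels.

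let-7b and let-7c, whose genes adjoin on chromosome 7, were the most alike pair of the family under the scaling used here (r = 0.85 over 55 organ means). With scaling over all miRNAs their correlation was 0.95, and that of let-7a and let-7f was higher (0.96). Their mature strands are 1 base apart, and the part of cross-hybridisation in this value was not tested. Both were lowest in the mesenteric lymph node. let-7b was at 1605, 1589 and 1732 there, 2.09-fold below the mean of the other organs (log2 difference -1.06, SE 0.12). let-7c was at 2150, 2118 and 2245, 2.20-fold below (log2 difference -1.13, SE 0.11). The let-7c level of rat 5 there is the scaling constant. The thymus was next to lowest for let-7c, at 2348, 2346 and 2149 (log2 difference -1.06, SE 0.11).

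The cervical lymph node was next to lowest for let-7b, with 2282, 1634 and 1543, and rank 53 of 55 for let-7c, with 3151, 2046 and 2008. Rat 4 was the high one for both. Its array also stood apart in epithelial miRNAs: the summed level of 5 of them was 3646 against 55.6 and 57.6, and miR-200a was at 1304 against the floor in rats 5 and 6. Without the arrays that stood apart, the log2 differences in this node were -1.11 for let-7b and -1.24 for let-7c, from -0.93 and -1.02 with them.

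At the other end let-7c was highest in the epididymis (10537, 10299 and 10247; log2 difference 1.16, SE 0.11), the cerebellum (9519, 10048 and 8778) and the ventral lobe of the prostate (8439, 8369 and 11569). let-7b was highest in the pancreas, at 6874, 7015 and 8522 (log2 difference 1.16, SE 0.12), followed by the cerebellum (6749, 7304 and 5919) and brown adipose tissue (7249, 6716 and 5751). The pancreas value for let-7b turned to -1.52 when arrays were scaled over all miRNAs, to -0.04 under quantile normalization and to -0.80 in the authors' table, whereas the other 5 values kept their direction. The anterior stomach, at rank 53, had let-7b at 2118, 2118 and 1749, the first 2 being the scaling constant, and its difference of -0.78 turned to 0.03 under scaling by the median.

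let-7i, with no listed miRNA on its strand within 10 kb, was high in bone marrow and thymus, where let-7b and let-7c were low. It was highest in femoral bone marrow, at 3263, 3609 and 4424 (2.42-fold above the mean of the other organs, log2 difference 1.28, SE 0.11, adjusted p = 7.64e-21). The cerebellum (3242, 3018 and 2634) and the thymus (3102, 2857 and 2646) came next and overlapped each other. let-7i was lowest in the liver, with 554, 631 and 553, and in the rectum, with 673, 539 and 585, at 2.76-fold and 2.68-fold below the mean of the other organs. Both ranges overlapped, and the kidney followed with 866, 703 and 721. These 6 organs kept their direction and their call under the 5 other scalings. The miRNAs most like let-7i were miR-181a (r = 0.57), miR-146b (0.52) and miR-181b (0.51), all well below the likeness seen for let-7e.

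let-7a, let-7d and let-7f share a cluster on chromosome 17 and correlated with one another at 0.66 (let-7a and let-7d), 0.79 (let-7a and let-7f) and 0.70 (let-7d and let-7f). let-7a was highest in the cerebellum (10313, 10045 and 10529; log2 difference 0.93, SE 0.10), then in optic nerve (8471, 8357 and 9274) and epididymis (9408, 7415 and 9177). The epididymis value of 0.67 turned to -0.08 under quantile normalization and to -0.25 in the authors' table. let-7a was lowest in the pancreas (3570, 2494 and 2806; log2 difference -0.92) and the rectum (4062, 2584 and 2423; -0.91). These organs overlapped each other, and rat 4 was the highest of the 3 rats in each. The tongue came next, at 3125, 3749 and 3090 (-0.73).

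let-7d was lowest in the pancreas, with 745, 521 and 705 (2.56-fold below the mean of the other organs, log2 difference -1.36, SE 0.11), and next in the rectum, with 1059, 733 and 732. The parotid gland followed at 1177, 985 and 1094 (log2 difference -0.61, or -0.75 on the array of rat 5 alone, without those that stood apart). Muscle miRNAs summed to 12184, 6152 and 83.8 on the 3 parotid arrays. On the same arrays miR-1224 was at 2145, 10420.5 and 17896, and miR-494 at 3797, 13262 and 12577. The part of these differences in the let-7d values was not tested. After the cerebellum its highest organs, the optic nerve (log2 difference 0.50) and the hippocampus (0.41), were close to many others, and the hippocampus turned to -0.57 and -0.41 under scaling over all miRNAs and in the authors' table. The optic nerve array of rat 4 held muscle miRNAs at a summed level of 5004 against 65.0 and 67.3, and without the arrays that stood apart the optic nerve values were 0.70 for let-7a and 0.55 for let-7d.

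let-7f had the flattest profile apart from the pancreas, where its levels of 2118 (the scaling constant), 1408 and 1469 put it 3.04-fold below the mean of the other organs (log2 difference -1.60, SE 0.13, adjusted p = 2.1e-22). The next lowest organ was 0.86 higher on the log2 scale. The cerebellum led with 7206, 6970 and 7955 (log2 difference 0.61, SE 0.13). The ventral prostate, at 6676, 6571 and 7583 (0.52), turned to -0.13 under quantile normalization. The eyeball, at 6957, 6093 and 6938 (0.46), turned negative under 4 of the 5 other scalings. The tongue was low, at 2730, 3482 and 2749 (-0.73). The abdominal aorta, at 4611, 3677 and 1547, was called lower at -0.73 only with the array of rat 6: without the arrays that stood apart it was -0.26 (adjusted p = 0.0655), and it turned to 1.39 and 0.98 under scaling over all miRNAs and in the authors' table. That array carried miR-1224 at 6497 against 76.2 and 63.6.

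The miRNA most like let-7d, let-7a and let-7f was the same one, miR-352, at r = 0.90, 0.65 and 0.71. These were 0.97, 0.92 and 0.91 with scaling over all miRNAs. Under that scaling every pair of members also correlated more highly, let-7b and let-7f at 0.75 against -0.01. The sequence of miR-352 was not compared with those of the family, and the part of cross-hybridisation in these values was not tested. The next most like were miR-361 (0.62) and miR-128 (0.60) for let-7d, miR-204 (0.62) and miR-125b-5p (0.58) for let-7a, and miR-101b and miR-361 (both 0.50) for let-7f. let-7c was most like miR-125b-5p (0.61), miR-99a (0.59) and miR-204 (0.58), and let-7b had no close match, with miR-320 (0.44), miR-29c* (0.40) and miR-324-3p (0.40) leading.

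miR-98, the member with a different name, was most like let-7d within the family (r = 0.61), followed by let-7a (0.57), let-7e and let-7f (both 0.55). It was highest in the pituitary gland at 416, 480 and 412 (2.36-fold above the mean of the other organs, log2 difference 1.24, SE 0.13), the thalamus (367, 420 and 472) and the cervical cord (339, 456 and 359). The 3 organs overlapped, and the thalamus value of 1.18 turned to -0.21 when arrays were scaled over all miRNAs and to -0.0076 in the authors' table. miR-98 had its lowest signals in the abdominal aorta, with 151, 109 and 59.7, where rat 6 was again the low one. It was not well above background on any pancreas array, so the order of aorta and pancreas is not known. Its difference in the aorta was -0.93, or -0.57 without the arrays that stood apart, and turned to between 0.39 and 1.19 under 3 other scalings. The tongue followed with 101, 123 and 94.1 (log2 difference -0.84). The difference in the interventricular septum was -0.76 and turned to between 0.064 and 0.76 under 3 other scalings. The miRNAs most like miR-98 were miR-324-5p (r = 0.85), miR-328a (0.79) and miR-326 (0.76).

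The organ classes of the study were compared next, with the organ as the unit: the mean over 3 rats gave 55 values, and limma set the organs of a class against all others. 14 of 48 class and member combinations passed. Of these 14, 8 kept their direction under each of the 5 other scalings and 1 also kept the call, that of let-7e in the intestines. Scaling over all miRNAs moved the class difference of every miRNA above the floor by -0.80 in the nervous system and by 0.94 in muscles. The same test was therefore run after each array was scaled to the mean log2 signal of the 8 members. This asks which members depart from the family. Values of single organs relative to the family are centred on each member's own mean over the 55 organs. These centred values do not order the signals of different members. There 10 of 48 passed. Subtracting the family mean cancels any factor per array, so of the 5 other scalings only quantile normalization could change these differences appreciably, and the others changed mainly the adjusted p. The call was lost for let-7a in the nervous system under 3 of them, for let-7b in the nervous system and in lymphoid organs under 2 each, and for miR-98 in muscles under 1, and the other 6 kept it. A fit on single arrays with the rat as a block called 37 and 46, because the spread between organs of a class then left the error term.

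In the nervous system (11 organs against 44) 6 members were called higher, against 29.3% of all miRNAs. let-7e rose by 1.84 on the log2 scale (SE 0.31, 3.57-fold, adjusted p = 1.5e-06), with organ means from 785 to 2386 in the class (median 1477) and a median of 419 outside it. miR-98 rose by 0.93 (SE 0.15, adjusted p = 4.02e-07). Both kept their direction under the 5 other scalings, with lowest values of 1.04 and 0.13, and passed under 4 and 3 of them. The differences of let-7a (0.45), let-7c (0.58), let-7d (0.50) and let-7i (0.47) passed too but turned negative, to between -0.35 and -0.04, under scaling over all miRNAs and in the authors' table.

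Relative to the family, let-7e was higher in the nervous system by 1.18 (SE 0.25, adjusted p = 9.28e-05), against 20.3% of all miRNAs called higher. Its centred value lay above the family mean in all 11 organs (0.37 to 1.63). let-7a (-0.21), let-7b (-0.39) and let-7f (-0.44) were called lower relative to the family, against 56.5% of all miRNAs. let-7e itself raises the family mean there. With let-7e left out of that mean, let-7f was still called (-0.27, adjusted p = 0.0254) and let-7a (-0.04, adjusted p = 0.653) and let-7b (-0.22, adjusted p = 0.148) were not.

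In the mucosa of the 6 intestines, from duodenum to rectum, let-7e was lower by 1.80 (log2 difference -1.80, SE 0.45, adjusted p = 0.00169), with organ means of 60.3 to 320 (median 191) and a median of 660 elsewhere. let-7a (-0.47, SE 0.16) and let-7i (-0.65, SE 0.21) were called lower as well, against 4.64% of all miRNAs, and all 3 kept their direction under the 5 other scalings. let-7e passed under each of them, and let-7a and let-7i did not pass with scaling over all miRNAs. Relative to the family only let-7e was called (-1.32, SE 0.34, adjusted p = 0.00215), against 2.32% of all miRNAs. Its centred value lay below the family mean in all 6 organs. miR-99a, miR-99b, miR-100 and miR-125a-5p lie within 10 kb of let-7 genes. They and miR-125b-5p were all called higher in the nervous system, by 1.30 to 2.08, against 29.3% of all miRNAs. All were called lower in the intestines, by -1.76 to -4.24, against 4.64% of all miRNAs. None was called in the other 4 classes. The class values of these miRNAs were not compared under the other scalings. miR-99b and miR-100 were not well above background on any duodenum array, nor miR-100 on any rectum array. miR-125a-5p was well above it on only 1 array each of duodenum and jejunum. These intestinal differences are therefore approximate.

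In the 5 lymphoid or hematopoietic organs (both lymph nodes, thymus, spleen and bone marrow) the family split. let-7c (log2 difference -1.05, SE 0.21, adjusted p = 8.73e-05) and let-7b (-0.87, SE 0.19, adjusted p = 0.000325) were lower, against 3.19% of all miRNAs called lower. Only 1 organ outside the class lay at or below its highest member, for let-7b as for let-7c. For let-7b, all 3 arrays of thymus and of spleen and 1 of bone marrow held the scaling constant, and its class difference was -0.90 with the family left out of the scaling. Both members kept their direction under the 5 other scalings and passed under 4 (let-7c) and 3 (let-7b) of them. let-7i was higher (0.65, SE 0.24, adjusted p = 0.0452), against 14.5% of all miRNAs called higher. It was called under none of the 5 other scalings, though its value there was 0.61 to 0.75, and its adjusted p was 0.0617 without rat 6.

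Relative to the family, 4 members were called in these organs. let-7i was higher by 0.91 (SE 0.19, adjusted p = 0.000199) and let-7f by 0.60 (SE 0.16, adjusted p = 0.00414), against 15.9% of all miRNAs called higher. let-7c was lower by 0.79 (log2 difference -0.79, SE 0.16, adjusted p = 0.000105) and let-7b by 0.62 (-0.62, SE 0.21, adjusted p = 0.0272), against 1.74%. On the centred values, each of these members lay on its side of the family mean in 5 of 5 organs. The centred values of let-7e lay below it and those of miR-98 above it in 5 of 5 too. Their class differences of -0.91 (adjusted p = 0.127) and 0.35 (adjusted p = 0.251) did not pass. Without the arrays that stood apart, the 4 called values were 0.92, 0.61, -0.83 and -0.65.

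**Figure D4:**
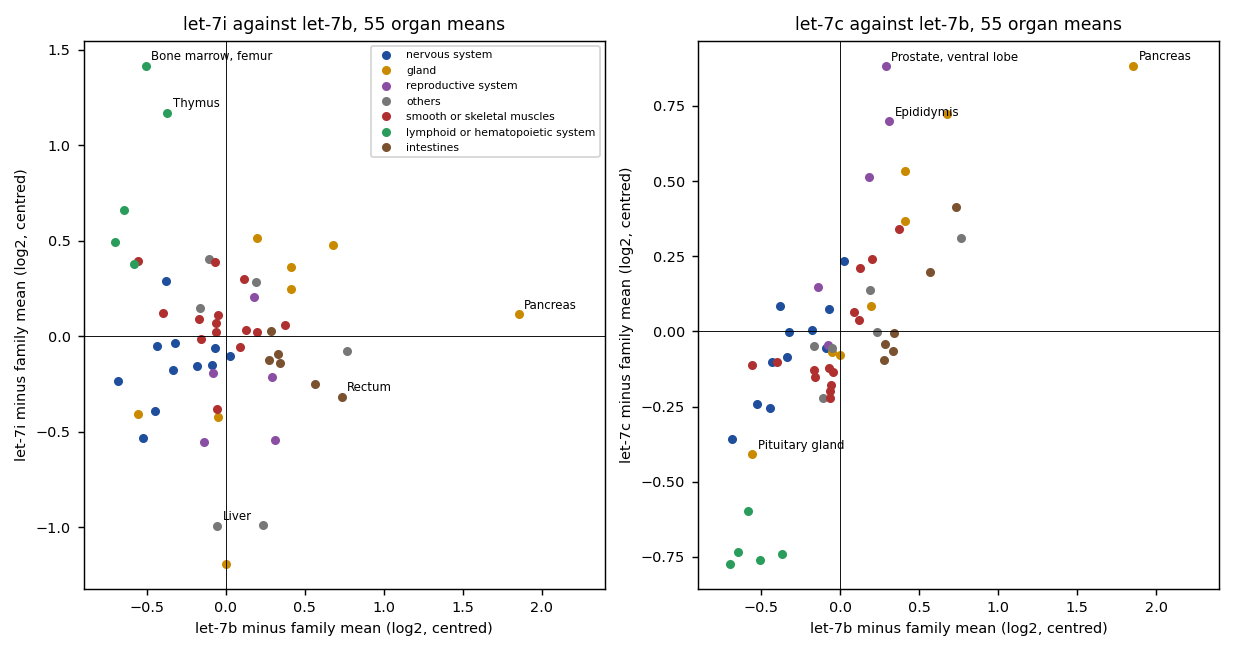
let-7i (left) and let-7c (right) against let-7b, each as the organ mean of log2 signal minus the mean of the 8 members, centred over the 55 organs; each point is 1 organ, colored by class. The 5 lymphoid or hematopoietic organs lie at the upper left for let-7i and at the lower left for let-7c, and the pancreas lies far to the right.

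In the 14 organs of smooth or skeletal muscle, miR-98 (-0.64, SE 0.16) and let-7f (-0.36, SE 0.12) were called lower, against 10.1% of all miRNAs, and both turned positive under scaling over all miRNAs (0.30 and 0.59) and in the authors' table (0.23 and 0.50). Relative to the family, miR-98 was lower by 0.37 (log2 difference -0.37, adjusted p = 0.0266), against 3.48% of all miRNAs, and its centred value lay below the family mean in 13 of 14 organs. That call was lost with let-7e left out of the mean (-0.33, adjusted p = 0.053) and without rat 4 (-0.35, adjusted p = 0.0562). No member was called in the reproductive organs, where 8.41% of all miRNAs were called higher, or in glands, where 4.35% were. The differences there ranged from -0.18 to 0.66 in the reproductive organs and from -0.29 to 0.48 in glands.

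**Figure D5:**
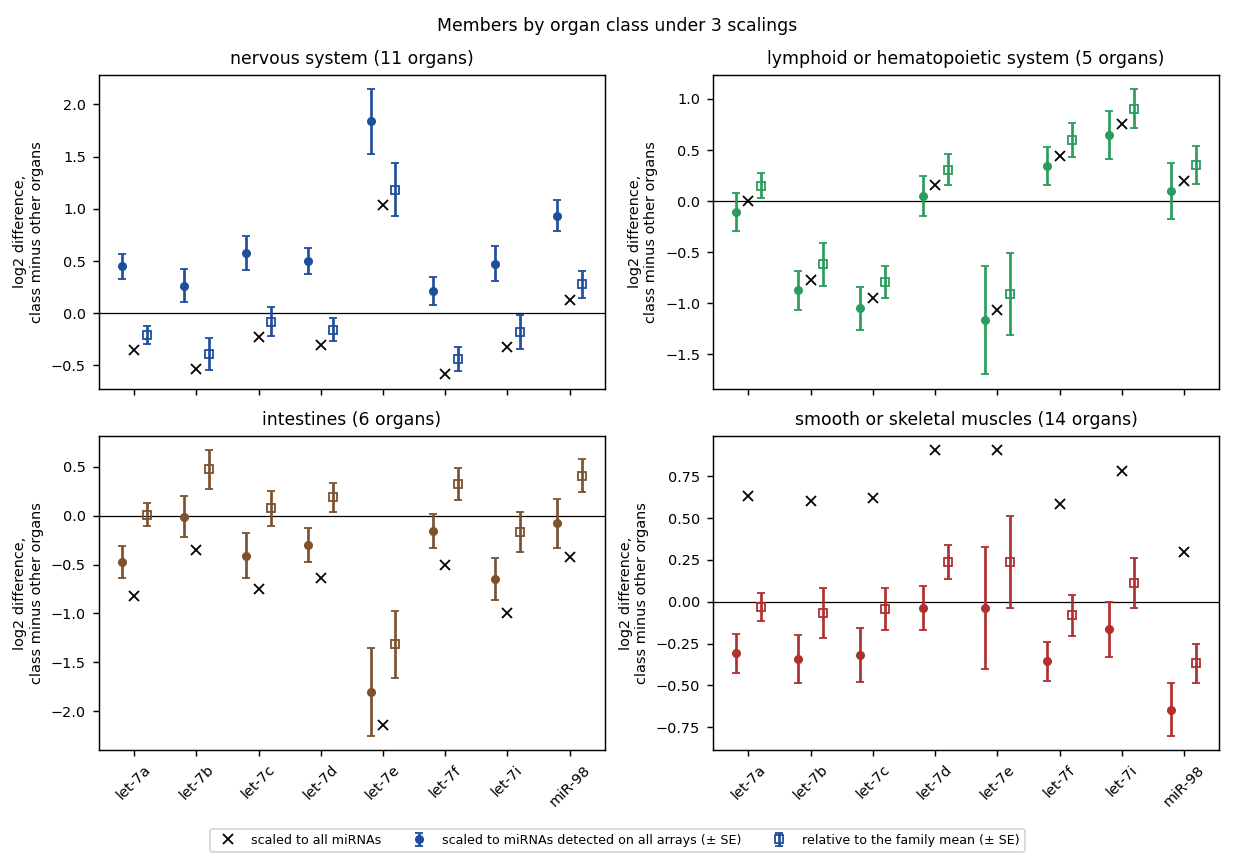
Log2 difference of each member between the organs of a class and all other organs (filled circles, ± SE), the same when arrays were scaled over all miRNAs (crosses), and relative to the family mean (open squares, ± SE), for 4 classes. In the nervous system and in muscles the crosses of several members lie across 0 from the circles, whereas let-7e in the nervous system and intestines and let-7b, let-7c and let-7i in lymphoid organs stay on 1 side.

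Single organs, among them 2 glands and 2 organs in none of the 6 classes, departed from the family as well. On the centred values, let-7f (0.83) and let-7a (0.65) lay above the family mean in the liver and let-7i below it (-0.99). let-7i was also far below it in the kidney (-0.99) and the adrenal gland (-1.19). In the pancreas let-7b lay 1.85 and let-7c 0.88 above it, on the dimmest arrays of the series. let-7e and miR-98, both part of that mean, were not well above background there, so these distances are approximate. These are descriptions of organ means and were not tested.

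Organ patterns were compared between members by the correlation of their 55 organ means, over 28 pairs that share the same arrays. The 4 pairs that differ by 1 base had a median correlation of 0.74, the 7 pairs with 2 differences 0.41, the 9 pairs with 3 differences 0.26 and the 6 pairs with 4 differences 0.33. Single pairs with 5 and 6 differences had 0.33 and 0.41. With scaling over all miRNAs these medians were 0.93 for 1 difference, 0.79 for 2, 0.75 for 3 and 0.79 for 4, and the single pairs had 0.60 and 0.85. let-7b and let-7f had the lowest (r = -0.01), which was 0.75 with scaling over all miRNAs. The 2 probe sequences that the array holds for each member had log2 signals that correlated at 0.985 to 0.998 over single arrays before scaling. Both probes share the brightness of their array, which raises this correlation. It therefore cannot decide whether they gave the same organ pattern. The SD of the log2 difference between the 2 probes was 0.080 for miR-98, the lowest, to 0.22 for let-7f, the highest.

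The passenger strands, the opposite arms of the hairpins that are mostly discarded, were close to absent. Of 9 on the array, let-7b* was detected on 14 arrays of the perfused rats and let-7d* on 4, and the remaining 7 on none. No passenger strand was detected on all 3 arrays of an organ.

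Perfusion was compared in 5 organs, 3 perfused against 3 not perfused rats, to ask whether blood left in an organ contributes to its miRNAs. None of the 40 organ and member combinations passed in limma, where 0.0% of the 191 miRNAs tested passed in any of the 5 organs. The authors reported the blood cell miRNAs miR-451 and miR-144 as evident in samples without perfusion and not in perfused ones. Neither was called in this test, so its lack of calls cannot decide whether blood contributes. No member had an unadjusted p under 0.05, and 3 to 12 of the 191 miRNAs did in each organ. Quantile normalization gave 3 member calls. The log2 differences ranged from -0.20 to 0.21 with SEs of 0.098 to 0.138, and the lowest adjusted p was 0.787. The largest difference was that of let-7e in the liver, at 197, 253 and 263 without perfusion and 276, 288 and 255 with it, and the groups overlapped. The groups did not overlap in 5 of 40 combinations (12.5%, against 4.92% over all miRNAs): let-7a, let-7f and miR-98 were higher in all perfused livers, and let-7b and let-7c lower in all perfused lungs. let-7f in liver was at 5302, 5492 and 5682 without and 5962, 6271 and 6817 with perfusion (log2 difference 0.21, SE 0.11, adjusted p = 0.787). The perfusion effect did not pass a test of difference among the 5 organs for any member (lowest adjusted p = 1). Perfused and not perfused arrays shared only slide 3 of 23, so slide and perfusion can hardly be told apart.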

How the data were processed

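Total RNA was labelled with Cy3 and hybridised to custom 8x15k arrays with probes for miRBase 15.0 and 16.0. The authors deposited 1 scanner file per array from Agilent Feature Extraction 10.7.3, whose spots hold a background-corrected intensity (linear scale), and a table of normalized intensity scaled to the 75th percentile by the authors, used here as an alternative. Here spot intensities without outlier spots were averaged per probe and then per miRNA (20 spots and 2 probe sequences per member). A miRNA counted as detected if the scanner software placed more than 50% of its spots well above background. The 75th percentile of the 37 miRNAs present on every array, 6 of them members, set each array's scale. Scaled values were multiplied by the mean of those percentiles, 2118, floored at 10.8 and put on the log2 scale. limma 3.58.1 (R 4.3.3) was fitted to the 345 miRNAs detected on all 3 arrays of an organ, with Benjamini-Hochberg adjustment and a threshold of 0.05, and was checked on simulated data. Classes are those of the study. For every member the 3 highest and 3 lowest organs and the 3 most similar miRNAs are named. The members and lists were chosen with earlier results of these data known. Alternatives covered scaling, background, floor, probe summary, filter, blocks, rats and batches. Arrays give no read depth: precision rests on 3 rats per organ. 8 arrays carry 2 rat numbers in their labels, and an alternative leaves them out. The normexp alternative combined local background with median spot signals and an offset of 50. It therefore changed the spot signal, the background correction and the offset together. Arrays of 1 rat come from the same animal, so rat numbers pair the organs: residuals correlated at 0.050 within and -0.025 between rats on average.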

Additional observations from a re-analysis of the deposited data

How the results depend on the processing

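All 8 members differed over organs under the 22 alternatives run. Organ calls ranged from 196 to 331 (256 as reported), or 215 to 239 with 1 rat left out. Class calls (14) became 3 with scaling over all miRNAs and 7 in the authors' table. They were 37 in a fit on single arrays, 37 with the slide, 38 with the scan day and 37 with the rat as a replicate block. Relative to the family (10) each of these fits gave 46, and arrays of scan day 1 alone 6. Leaving out 1 rat gave 13 to 16 and 10 to 11. Without the 7 arrays that stood apart (chosen after seeing the data) organ, class and relative calls were 273, 14 and 11, and without the pancreas 249, 15 and 13. Without the 8 arrays of 2 rat numbers they were 254, 14 and 10. A family mean without let-7e, also added later, gave 8 relative calls. Of the 10 reported, 3 were lost, and the 8 include a call not among those 10. Perfusion calls (0) became 3, and organ differences in its effect 1, under quantile normalization, and stayed 0 with any rat left out. The block added 3 organ calls (259) and left 8 members differing.

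Scaling over all miRNAs reversed let-7b in pancreas (-1.52), let-7d in hippocampus (-0.57), let-7f in eyeball (-0.33) and aorta (1.39), and miR-98 in thalamus (-0.21), septum (0.76) and aorta (1.19). In the nervous system it reversed let-7a (-0.35), let-7c (-0.23), let-7d (-0.30) and let-7i (-0.33), and in muscles let-7f (0.59) and miR-98 (0.30). The authors' table reversed the same results (-0.80, -0.41, -0.27, 0.98, -0.0076, 0.48, 0.80; -0.17, -0.043, -0.12, -0.14; 0.50, 0.23 in that order) and let-7a in epididymis (-0.25). Quantile normalization reversed let-7a in epididymis (-0.080), let-7b in pancreas (-0.042), let-7f in ventral prostate (-0.13) and eyeball (-0.24), and miR-98 in septum (0.064) and aorta (0.39). Scaling by the median reversed let-7f in eyeball (-0.11) and let-7b in anterior stomach (0.032), and normexp let-7e in pancreas (0.47). Scaling over all miRNAs shifts every miRNA of an array above the floor alike. Here the shift was -0.80 between nervous system and other organs and 0.94 for muscles. For the other alternatives the cause was not tested. Of 1051 named organ values under alternatives 1001 kept direction and call and 26 only direction, as did 332 and 34 of 378 class values and 255 and 25 of 280 relative ones. The latter cannot change with a factor per array, so most scalings could not reverse them.

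Dim signal limits let-7e and miR-98 in the pancreas, 3 rats per organ limit the order of neighbouring organs, and shared signal between members 1 base apart was not tested.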
